A study of Homo sapiens with 6 samples.

Results

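Respiratory complex I, also called NADH:ubiquinone oxidoreductase, takes electrons from NADH and passes them to ubiquinone in the inner membrane of the mitochondrion, and it pumps protons out of the matrix as it does so. It is an L-shaped enzyme. A peripheral arm in the matrix holds the flavin, the iron-sulphur clusters and the ubiquinone site, while a membrane arm holds the proton channels. The core of the membrane arm is encoded by mitochondrial DNA, and the core of the peripheral arm and all accessory (supernumerary) subunits are encoded in the nucleus. In many cell types low oxygen shifts metabolism towards glycolysis, and hypoxia-inducible factors raise some genes whose products lower mitochondrial respiration. The nuclear subunits were taken as the genes whose symbols begin with NDUFA, NDUFAB, NDUFB, NDUFC, NDUFS or NDUFV followed by a digit. The assembly factors (NDUFAF names) and NDUFA4 with its paralog NDUFA4L2 were left out, since NDUFA4 belongs to complex IV. The rule found 38 of the 20288 protein-coding genes listed, of which 37 were subunit genes and 1 was NDUFC2-KCTD14, a readthrough gene that joins NDUFC2 to its neighbor.

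The cells were SW1736, an established human anaplastic thyroid cancer line. One group was kept for 72 h at 2% O2 (hypoxia, n = 3 libraries) and the other for 72 h at 21% O2 (normoxia, n = 3 libraries), with no other treatment or genotype between them. Total RNA was made into small RNA libraries by a ligation-free method (CATS), so a count for a gene is a count of short RNA fragments that aligned to the 1 transcript listed for it, not of intact mRNA. The libraries held 1257495 to 1509013 mRNA counts in hypoxia and 1333424 to 1373669 in normoxia. The labels number the replicates but do not say whether they were separate cultures, so the p-values here speak only of how these 6 libraries vary. In such bulk RNA, fewer cells with a transcript and less of it per cell cannot be told apart.

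The label of each group was checked with 6 genes that low oxygen is known to induce. The paper lists NDRG1, BNIP3, PGK1 and LDHA among its transcripts raised in hypoxic SW1736 cells, so these are no independent check. CA9, a carbonic anhydrase, had 23, 23 and 11 counts in hypoxia against 1, 3 and 0 in normoxia. Of the 6 genes, edgeR called 5 as higher in hypoxia (adjusted p under 0.05), with log2 fold changes of 3.67 for CA9, 1.71 for NDRG1, 1.21 for BNIP3, 0.73 for PGK1 and 0.72 for LDHA. PDK1, at 0.33 on this scale, did not pass (adjusted p = 0.655 from edgeR). The thyroid label was borne out only in part. The transcription factor genes PAX8 (190 to 261 counts in hypoxia, 170 to 224 in normoxia) and FOXE1 (28 to 53 counts in hypoxia, 32 to 59 in normoxia) were measured, while TG, TSHR and SLC5A5, genes of hormone production and its control, had 0 to 10 counts in every library.

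No complex I subunit passed the test between hypoxia and normoxia. Of the 38 members, 32 had enough counts to be tested and 6 did not. By edgeR, none of the 32 reached an adjusted p under 0.05 in either direction, where 0.758% of all mRNA features tested were called (0.596% higher and 0.162% lower), as were 0.789% of all features with miRNAs included. At an unadjusted p under 0.05 edgeR had 2 members, NDUFS5 and NDUFC2-KCTD14, both lower in hypoxia, against 10.3% of all mRNA features in either direction (4.67% lower and 5.58% higher). DESeq2 had 0 members at an unadjusted p under 0.05 and limma-voom had 2. With 1 library left out edgeR had 0 (without hypoxia replicate 1 or normoxia replicate 2) to 4 (without hypoxia replicate 3). The lowest adjusted p of any member was that of NDUFS5 (0.374 from edgeR).

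The fitted changes were small. The log2 fold changes of the 32 tested members ran from -0.99 to 0.16, and those of 30 lay between -0.5 and 0.5. Their median was -0.12 (0.921-fold), beside -0.01 (0.996-fold) over all 11082 mRNA features tested. A value below 0 was found for 22 of 32 members (68.8%), beside 51.0% of all mRNA features. Without normoxia replicate 2 it was 17 of 33 members and without hypoxia replicate 1 it was 18 of 33. It was 23 of 32 without hypoxia replicate 2 and 24 of 32 without hypoxia replicate 3. Without normoxia replicate 1 it was 22 of 33 and without normoxia replicate 3 it was 26 of 33. Members that passed the filter do not stand for all 38, so these values are descriptions and carry no p. The 95% interval of the fold change lay wholly between 1.5-fold lower and 1.5-fold higher for 22 of 32 members, and wholly between 2-fold lower and 2-fold higher for 30. A change larger than 2-fold in these fragment counts was therefore outside the interval for 30 of the 32.

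**Figure D1:**
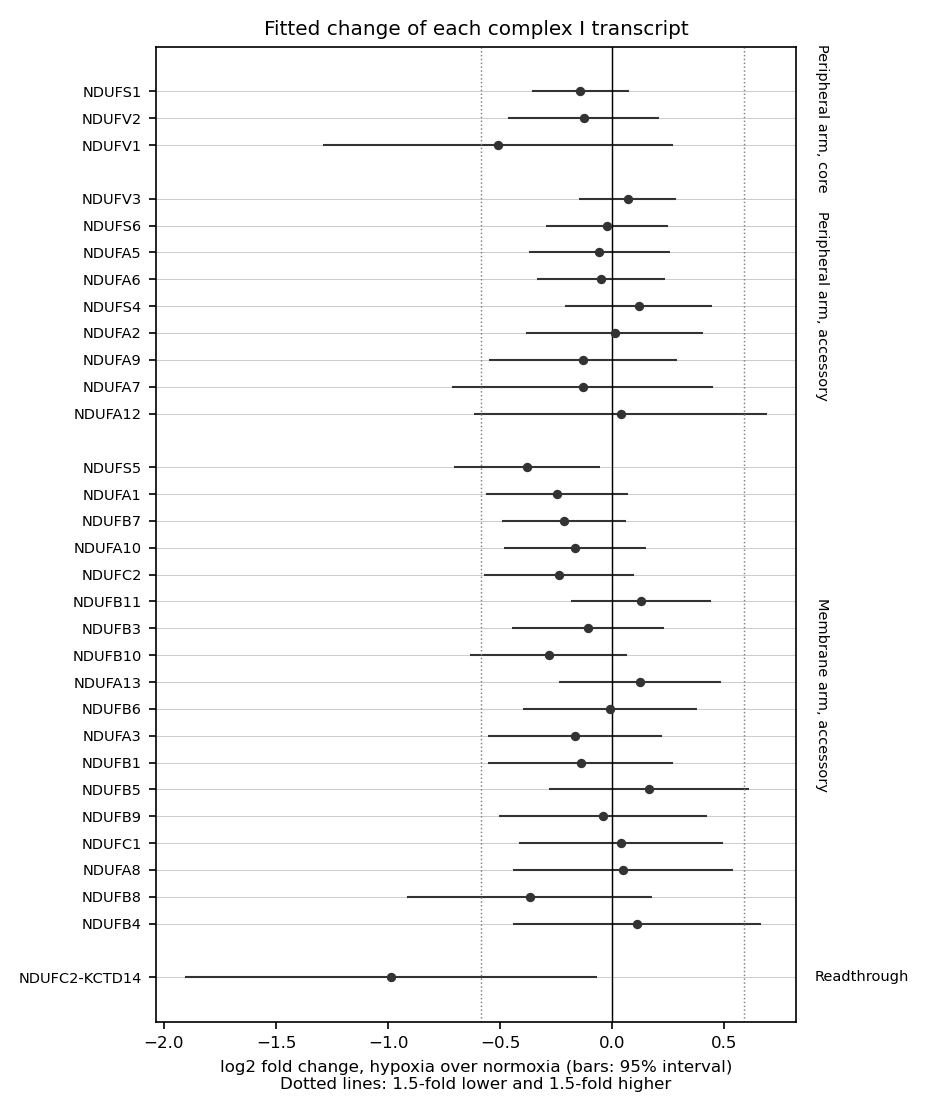
Fitted log2 fold change of hypoxia over normoxia (horizontal axis) for 31 of the 32 tested complex I members, grouped by arm. Points are edgeR estimates, bars are 95% intervals and dotted lines mark 1.5-fold. The intervals of NDUFS5 and NDUFC2-KCTD14 lie below 0, and those of all other members shown span 0.

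The core subunits of the peripheral arm carry electrons from NADH to ubiquinone, and 4 of the 7 were tested. NDUFS1, the largest of them, which holds several iron-sulphur clusters, had 343, 332 and 286 counts in hypoxia against 319, 372 and 342 in normoxia. Scaled to library size by TMM this gave 200.1 ± 9.49 normalized counts per 1000000 (CPM) in hypoxia and 221 ± 16.5 in normoxia (SD, n = 3 each). The groups overlapped through hypoxia replicate 1, which lay above normoxia replicate 1, and the log2 fold change was -0.14 (SE 0.107, adjusted p = 0.697 from edgeR). NDUFV1, the subunit that binds NADH and flavin mononucleotide, had 11, 10 and 12 counts in hypoxia against 15, 16 and 15 in normoxia. All 3 hypoxic libraries lay below all 3 normoxic ones, yet with 79 counts in all the log2 fold change of -0.51 had an SE of 0.385 (adjusted p = 0.702 from edgeR) and a 95% interval of -1.29 to 0.27. NDUFV2, which carries an iron-sulphur cluster beside NDUFV1, had 78, 92 and 79 counts in hypoxia against 86, 96 and 83 in normoxia, and a log2 fold change of -0.13. The groups overlapped in NDUFV2. Over the 4 tested core subunits every log2 fold change was below 0, with a median of -0.18, and none passed the test.

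NDUFS3, NDUFS7 and NDUFS8, also core subunits of this arm, stayed below the filter. NDUFS7, which holds the last iron-sulphur cluster before ubiquinone, had 8, 6 and 7 counts in hypoxia against 8, 6 and 3 in normoxia. NDUFS3 had 8, 2 and 0 counts in hypoxia against 4, 4 and 2 in normoxia. NDUFS8 had 0, 3 and 6 counts in hypoxia against 4, 0 and 0 in normoxia. At these counts no difference could be detected. The transcript listed for NDUFS8 is of the nonsense-mediated decay type in GENCODE 44 and holds 81.2% of the 25-base words of the gene's reference (MANE Select) transcript. That of NDUFS3 is of the retained intron type and holds 43.1% of them.

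Of the accessory subunits of the peripheral arm all 9 were tested, 5 had a log2 fold change below 0 and none passed. Their median was -0.02. NDUFV3, which sits beside the NADH-binding subunits, was the most counted member, with 452, 422 and 410 counts in hypoxia against 379, 366 and 451 in normoxia. Its level was 268.4 ± 22.1 normalized CPM in hypoxia and 255.7 ± 27.1 in normoxia (SD, n = 3 each), the groups overlapped, and its log2 fold change was 0.07 (SE 0.107, adjusted p = 0.883 from edgeR, 95% interval -0.15 to 0.28). NDUFS4, a subunit needed for a stable enzyme and mutated in Leigh syndrome, had 120, 104 and 82 counts in hypoxia against 88, 101 and 85 in normoxia. Hypoxia replicate 1 was the highest NDUFS4 library on the normalized scale, the other libraries were mixed, and the log2 fold change was 0.12 (adjusted p = 0.866 from edgeR). NDUFS6, a zinc-binding subunit, had 158, 153 and 131 counts in hypoxia against 142, 163 and 132 in normoxia, and a log2 fold change of -0.02 (edgeR, adjusted p = 0.977). The remaining 6 ran from -0.13 in NDUFA7 and NDUFA9 to 0.04 in NDUFA12, with NDUFA5, NDUFA6 and NDUFA2 at -0.06, -0.05 and 0.01. In all 9 the groups overlapped.

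Of the 20 accessory subunits of the membrane arm 18 were tested, 12 had a log2 fold change below 0, with a median of -0.13 over the 18, and none passed. NDUFS5, which faces the intermembrane space, had the smallest p of all members. Its counts were 94, 146 and 149 in hypoxia against 152, 189 and 154 in normoxia, or 57.6, 84.2 and 103.5 normalized CPM in hypoxia against 98.5, 121.5 and 97.8 in normoxia. Hypoxia replicate 1 was the lowest and normoxia replicate 2 the highest, and hypoxia replicate 3 lay above normoxia replicates 1 and 3, so that the groups overlapped. The log2 fold change was -0.38 (0.769-fold, SE 0.160, 95% interval -0.71 to -0.05, adjusted p = 0.374 from edgeR). Without hypoxia replicate 1 it was -0.18 (adjusted p = 0.769 from edgeR) and without normoxia replicate 2 it was -0.27 (adjusted p = 0.626 from edgeR), neither past an unadjusted p of 0.05. Without hypoxia replicate 3 it was -0.57 (edgeR, adjusted p = 0.109). Leaving out hypoxia replicate 2 gave -0.41, normoxia replicate 1 gave -0.43 and normoxia replicate 3 gave -0.44, and these 4 values were all past an unadjusted p of 0.05. NDUFS5 lies on the plus strand of chromosome 1 (chr1:39026318-39034636, GRCh38) and has 6 named pseudogene copies. It shares 21.7% of the 25-base words of its transcript with other genes, and fragments from those shared stretches cannot be assigned to a single gene. The part shared with the named copies was not counted separately.

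NDUFB7 and NDUFB10, which like NDUFS5 and NDUFA8 are CHCH-domain proteins of the intermembrane space side, were the 2 membrane arm members in which the groups did not overlap. NDUFB10 had 86, 69 and 69 counts in hypoxia against 84, 84 and 98 in normoxia, or 46.8 ± 6.54 normalized CPM in hypoxia and 56.9 ± 4.64 in normoxia (SD, n = 3 each). NDUFB7 had 127, 133 and 135 counts in hypoxia against 146, 152 and 150 in normoxia, or 82.8 ± 9.57 normalized CPM in hypoxia and 95.8 ± 1.63 in normoxia (SD, n = 3 each). Every hypoxic library lay below every normoxic one in both, by a small margin on the normalized scale in hypoxia replicate 3 for NDUFB7 (93.8 against 94.6 in normoxia replicate 1) and in hypoxia replicate 1 for NDUFB10 (52.7 against 54.0 in normoxia replicate 2). Their log2 fold changes were -0.28 for NDUFB10 (adjusted p = 0.604 from edgeR) and -0.22 for NDUFB7 (adjusted p = 0.620 from edgeR). NDUFA8, of the same kind, had 40, 45 and 29 counts in hypoxia against 41, 36 and 30 in normoxia and a log2 fold change of 0.05. In all, the groups did not overlap in 4 members, namely NDUFB10, NDUFB7, NDUFV1 and NDUFC2-KCTD14, each lower in hypoxia, against 15.3% of all mRNA features in either direction and 7.01% in this one.

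NDUFB8, a subunit of the far end of the membrane arm, had 26, 28 and 24 counts in hypoxia against 38, 36 and 24 in normoxia, and a log2 fold change of -0.37 (SE 0.270, adjusted p = 0.692 from edgeR). Normoxia replicate 3 lay below all 3 hypoxic libraries and the other normoxic libraries above them. NDUFA1, a small subunit required early in assembly, had 106, 183 and 138 counts in hypoxia against 144, 153 and 196 in normoxia, and a log2 fold change of -0.25 (edgeR, adjusted p = 0.618). Its groups overlapped, and hypoxia replicate 1 was the lowest library. The highest fitted values in the arm, and of all members, were those of NDUFB5, NDUFB11 and NDUFA13. NDUFB5 had 58, 57 and 42 counts in hypoxia against 53, 33 and 50 in normoxia (log2 fold change 0.16, adjusted p = 0.859 from edgeR). NDUFB11 had 110, 125 and 101 counts in hypoxia against 90, 92 and 117 in normoxia (log2 fold change 0.13, adjusted p = 0.835 from edgeR). NDUFA13, also known as GRIM-19, had 70, 87 and 82 counts in hypoxia against 71, 78 and 65 in normoxia (log2 fold change 0.12, adjusted p = 0.873 from edgeR). The groups overlapped in these 3 as well.

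The other tested members of the membrane arm lay between these extremes, and their groups overlapped too. The log2 fold changes were -0.17 for NDUFA10 and NDUFA3, -0.14 for NDUFB1, -0.04 for NDUFB9 and -0.01 for NDUFB6, and on the other side of 0 they were 0.04 for NDUFC1 and 0.11 for NDUFB4. NDUFB3, among the highest members per kilobase, had 80, 102 and 101 counts in hypoxia against 84, 117 and 97 in normoxia (log2 fold change -0.11, SE 0.168, adjusted p = 0.882 from edgeR). NDUFA11 and NDUFB2 stayed below the filter. NDUFB2 had 8, 12 and 11 counts in hypoxia against 8, 8 and 5 in normoxia, and NDUFA11 had 7, 6 and 9 counts in hypoxia against 10, 5 and 5 in normoxia. NDUFAB1, the mitochondrial acyl carrier protein that is bound to both arms through LYR-motif subunits such as NDUFA6 and NDUFB9, had 3, 0 and 2 counts in hypoxia against 4, 3 and 1 in normoxia and was not tested.

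**Figure D2:**
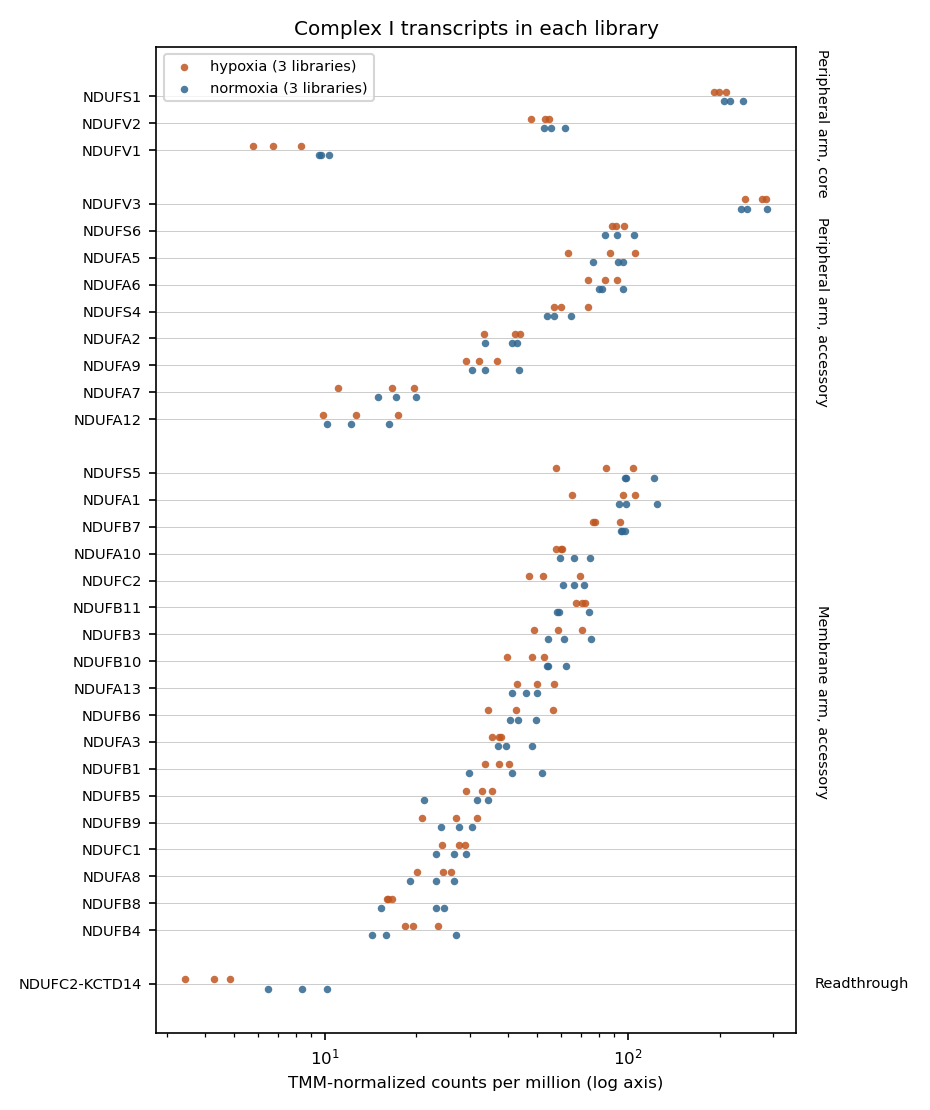
TMM-normalized CPM (horizontal log axis) of 31 of the 32 tested members in each of the 3 hypoxic and 3 normoxic libraries, 1 point per library, grouped by arm. In NDUFV1, NDUFB7, NDUFB10 and NDUFC2-KCTD14 all hypoxic points lie left of all normoxic points, and in the other members shown the groups overlap.

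The lowest fitted log2 fold change of any member belonged to the readthrough NDUFC2-KCTD14, which is not a subunit by itself. NDUFC2 lies on the minus strand of chromosome 11 (chr11:78068297-78079862, GRCh38), and the readthrough gene (chr11:78016971-78079865) runs on from it through KCTD14. The windows of 30 bases printed here show what the listed transcripts share, read 5′ to 3′ along the minus strand from the GENCODE 44 transcripts. Lower case marks the last 15 bases of the exon before a junction and capitals the first 15 bases of the next exon.
NDUFC2: attttcctgaagaagATAAGAAAACATATG
NDUFC2-KCTD14: attttcctgaagaagATGTCTACTGTTGTG
KCTD14: cccaggcggccaacgATGTCTACTGTTGTG
NDUFC2 and the readthrough leave the same exon end at position 78072998, and NDUFC2 goes on at position 78070036. The readthrough goes on at position 78017270, where the last exon of KCTD14 also begins. Of the 632 words of 25 bases in the readthrough, 406 (64.2%) are also in the NDUFC2 transcript. Another 202 (31.96%) are in that of KCTD14 and only 24 (3.80%) in neither.

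NDUFC2-KCTD14 had 7, 6 and 7 counts in hypoxia against 10, 13 and 16 in normoxia. On the normalized scale this was 4.29, 3.46 and 4.86 CPM in hypoxia against 6.48, 8.36 and 10.2 in normoxia, and every hypoxic library lay below every normoxic one. The log2 fold change was -0.99 (0.505-fold, 95% interval 0.267 to 0.954, adjusted p = 0.433 from edgeR), on 59 counts in all. NDUFC2 itself had 77, 91 and 100 counts in hypoxia against 110, 103 and 96 in normoxia, and its log2 fold change was -0.24 (SE 0.166, adjusted p = 0.675 from edgeR). Its groups overlapped, with hypoxia replicate 3 above normoxia replicates 2 and 3 on the normalized scale. KCTD14, which is no member, stood at -0.19 (log2 fold change, adjusted p = 0.921 by edgeR) with 6.13, 5.19 and 9.73 normalized CPM in hypoxia against 7.13, 10.3 and 6.35 in normoxia. As nearly all of the readthrough sequence lies in NDUFC2 or KCTD14, counts given to the readthrough cannot be told apart from counts of those genes, while 29.9% of the words of NDUFC2 and 16.98% of those of KCTD14 occur in other genes. Without the readthrough, the fitted values of the 31 tested subunits ran from -0.51 to 0.16 with a median of -0.11, and 21 of them were below 0.

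**Figure D3:**
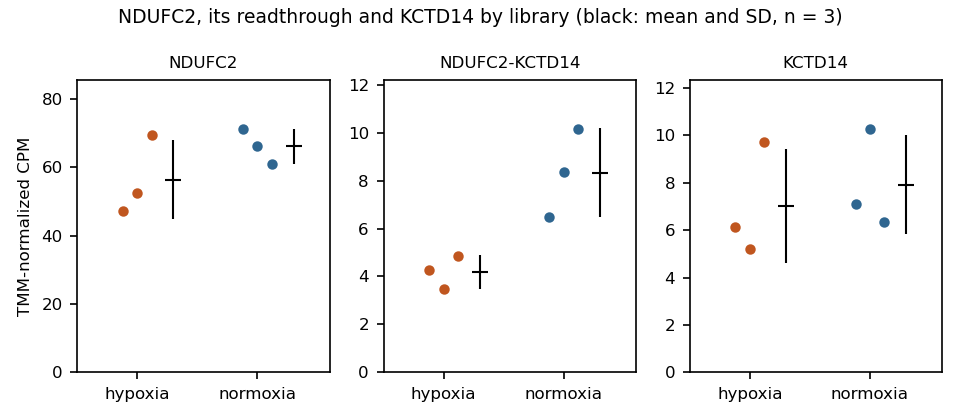
TMM-normalized CPM of NDUFC2, the readthrough NDUFC2-KCTD14 and KCTD14 (1 panel each, vertical axes differ) in each hypoxic and normoxic library, with the mean and SD of 3 libraries in black. The hypoxic libraries lie below the normoxic ones only in the panel of the readthrough.

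Between members, levels were compared as normalized CPM per kilobase of the listed transcript. The highest were 149 in hypoxia and 193 in normoxia for NDUFS5, 156 in hypoxia and 180.5 in normoxia for NDUFB7, 116 in hypoxia and 138 in normoxia for NDUFA1, 85.1 in hypoxia and 86.4 in normoxia for NDUFS6, and 78.6 in hypoxia and 84.4 in normoxia for NDUFB3. These are small subunits of the membrane arm, apart from NDUFS6. The lengths are those of whole transcripts, while the paper states that reads in the non-coding parts of mRNAs were left out. If that holds for the deposited counts, a long untranslated region would lower the value of a gene such as NDUFS1, which was not tested. The 6 members below the filter were also the 6 lowest per kilobase, at 1.22 to 3.89 in hypoxia and 1.06 to 2.70 in normoxia. Subunits of 1 enzyme thus differed far more from each other in these counts than any of them differed between hypoxia and normoxia. The transcript listed was the MANE Select transcript for 17 of the 32 tested members and for 0 of the 6 others, and the median share of MANE 25-base words it held was 100% for the tested and 76.2% for the others. Of the 38 listed transcripts 5 are of the nonsense-mediated decay type (NDUFA12, NDUFA13, NDUFB9, NDUFS4 and NDUFS8). In 18 members over 10% of the 25-base words also occur in another gene, most of all in NDUFC2-KCTD14 (96.4%), NDUFA7 (85.1%), NDUFV2 (74.7%) and NDUFB8 (58.9%), while 14 members overlap a coding gene on the other strand and 11 on the same strand, so that fragments of these members may be split between genes and their values are uncertain to that extent. Over the tested members the log2 fold change had a Spearman's rho of 0.28 with transcript length and 0.03 with total counts (n = 32 genes from the same libraries).

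Summed over all 38 members, complex I took 0.204%, 0.211% and 0.227% of the mRNA counts in hypoxia against 0.223%, 0.234% and 0.221% in normoxia. The 95% Clopper-Pearson intervals, which cover counting error only, were 0.197% to 0.212% for the lowest hypoxic library and 0.226% to 0.242% for the highest normoxic one. Hypoxia replicates 1 and 2 lay below all normoxic libraries and hypoxia replicate 3 lay among them. The means were 0.214 ± 0.0119% in hypoxia and 0.226 ± 0.00699% in normoxia (SD, n = 3 each), a ratio of 0.946. By arm the ratio of mean shares was 0.907 for the core of the peripheral arm, 1.01 for its accessory subunits and 0.916 for the accessory subunits of the membrane arm. In the core of the peripheral arm the shares of 0.0342%, 0.0319% and 0.0340% in hypoxia lay below those of 0.0363%, 0.0384% and 0.0356% in normoxia, and in the other arms' sums they overlapped. NDUFS1 made up most of that core sum, for example 343 of its 482 counts in hypoxia replicate 1.

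Both libraries at the ends of the sum stood apart across many members. Relative to each member's mean over the libraries, the median log2 deviation of the 32 tested members was -0.19, -0.05 and 0.02 in hypoxia replicates 1, 2 and 3, against 0.07, 0.15 and 0.01 in normoxia replicates 1, 2 and 3, where that of all mRNA features was 0.01 to 0.02 in each. Hypoxia replicate 1 was the lowest library for 11 of the 32 members and normoxia replicate 2 the highest for 13. The median log2 fold change of the members was -0.04 without hypoxia replicate 1 and -0.02 without normoxia replicate 2, beside -0.12 with all 6 libraries. These 2 libraries were picked from the same values, so leaving either out tends to move the median towards 0. The other medians were -0.12 without hypoxia replicate 2, -0.14 without hypoxia replicate 3, -0.07 without normoxia replicate 1 and -0.13 without normoxia replicate 3.

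**Figure D4:**
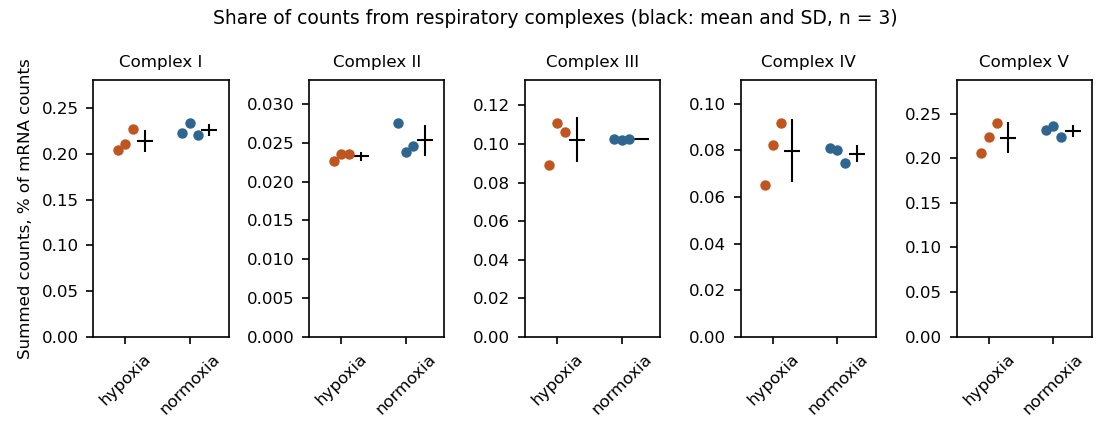
Summed counts of the nuclear subunits of complexes I to V in percent of the mRNA counts (vertical axes start at 0 and differ between panels), 1 point per library, with the mean and SD of 3 libraries in black. For complex I the hypoxic libraries take 0.204% to 0.227% and the normoxic ones 0.221% to 0.234%, and hypoxia replicate 1 is the lowest library in every panel.

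The other respiratory complexes were set beside complex I in the same libraries. Complex II, or succinate dehydrogenase, had a median log2 fold change of -0.13 over 4 subunits, complex III of -0.02 over 9, complex IV of -0.02 over 10 and complex V, the ATP synthase, of -0.07 over 15. A log2 fold change below 0 was found for 3 of 4 subunits in complex II and 6 of 9 in complex III. In complex IV it was 6 of 10 and in complex V 12 of 15, beside 22 of 32 complex I members. None of the subunits of complexes II to V passed the test in either direction. At an unadjusted p under 0.05 edgeR had 1 of them, ATP5J2 of complex V, against 10.3% of all mRNA features. ATP5J2 had 123, 147 and 111 counts in hypoxia against 159, 172 and 147 in normoxia, with no overlap on the normalized scale (log2 fold change -0.37, adjusted p = 0.248 from edgeR). ATP5D, next in complex V, had a log2 fold change of -0.45. The genes with the smallest p in complexes II to IV were SDHC (-0.18) and SDHA (-0.15), UQCRH (-0.27) and UQCR10 (-0.25), and COX6B1 (0.25) and COX7A2 (0.11), each a log2 fold change. The ratio of the summed shares, hypoxia over normoxia, was 0.918 for complex II, 0.997 for complex III, 1.016 for complex IV and 0.967 for complex V, beside 0.946 for complex I. The shares of complex II, at 0.0226%, 0.0236% and 0.0236% in hypoxia against 0.0276%, 0.0238% and 0.0246% in normoxia, did not overlap either, as in the core of the peripheral arm. The margin in complex II was small, 0.02362% in hypoxia replicate 3 against 0.02385% in normoxia replicate 2. In each complex II subunit alone the groups overlapped. Whether complex I differed from the other complexes was not tested.

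NDUFA4, once counted as a complex I subunit and now placed in complex IV, had 96, 133 and 79 counts in hypoxia against 104, 109 and 112 in normoxia, and a log2 fold change of -0.12 (edgeR, adjusted p = 0.848). Hypoxia replicate 2 was its highest library and the other hypoxic libraries its lowest. NDUFA4L2 is a paralog of NDUFA4 that hypoxia-inducible factor raises in many cell types. It had 1, 0 and 0 counts in hypoxia against 0, 0 and 1 in normoxia, and was not tested. From such counts a fall or a small change was not detectable at this depth. A rise such as that of CA9, from 1, 3 and 0 counts in normoxia to 23, 23 and 11 in hypoxia, was not seen. Of the 7 subunits encoded by mitochondrial DNA, which form the core of the membrane arm, 2 were tested and neither passed. MT-ND3 had 645, 610 and 569 counts in hypoxia against 720, 537 and 600 in normoxia (log2 fold change -0.06), and MT-ND4 had 79, 71 and 91 counts in hypoxia against 116, 81 and 83 in normoxia (log2 fold change -0.25, adjusted p = 0.695 from edgeR). The groups overlapped in both. MT-ND5 and MT-ND6 had 0 to 7 counts per library, and MT-ND1, MT-ND2 and MT-ND4L were listed at 0 in all 6 libraries. Whether these zeros came from expression, mapping or counting was not tested, so they do not show that the transcripts were absent.

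Complex I is built by assembly factors that are not part of the finished enzyme. Of 20 such factors 16 were tested, none passed and the median log2 fold change was -0.10. ACAD9, an acyl-CoA dehydrogenase relative that acts in the assembly of the membrane arm, had 26, 34 and 15 counts in hypoxia against 40, 40 and 36 in normoxia, and a log2 fold change of -0.68 (SE 0.265, adjusted p = 0.310 from edgeR). NDUFAF2, which holds the place of NDUFA12 during assembly, had 156, 173 and 149 counts in hypoxia against 124, 142 and 118 in normoxia, and a log2 fold change of 0.28 (edgeR, adjusted p = 0.475). In both genes the groups did not overlap on the normalized scale, with ACAD9 lower and NDUFAF2 higher in hypoxia, and neither difference passed the adjustment. They were the only 2 of the 16 tested factors without overlap, against 15.3% of all mRNA features in either direction. The summed share of the 20 factors had a ratio of 0.996.

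The peripheral arm also needs iron-sulphur clusters, and of 15 genes of cluster assembly 14 were tested and none passed, with a median log2 fold change of -0.16. GLRX5, a mitochondrial glutaredoxin that passes clusters on, had 26, 22 and 30 counts in hypoxia against 51, 40 and 40 in normoxia, and a log2 fold change of -0.78 (SE 0.256, adjusted p = 0.177 from edgeR). LYRM4, a partner of the cysteine desulphurase, had 29, 55 and 31 counts in hypoxia against 56, 63 and 41 in normoxia, and a log2 fold change of -0.52 (edgeR, adjusted p = 0.424). The groups did not overlap in GLRX5 and overlapped in LYRM4. In 3 genes of the list the groups did not overlap in the other direction, named after their values were seen. In all, the groups did not overlap in 4 of the 14 tested, against 15.3% of all mRNA features in either direction. NFS1, the cysteine desulphurase itself, had a log2 fold change of 0.52 (edgeR, adjusted p = 0.518), ISCA1 of 0.36 and the chaperone HSPA9 of 0.13. ISCU, the scaffold on which clusters form, is a known target of the hypoxia-induced miR-210 and is named here for that reason after its values were seen. It had 7, 9 and 11 counts in hypoxia against 10, 10 and 20 in normoxia, and its log2 fold change of -0.59 had an SE of 0.437 (adjusted p = 0.692 from edgeR).

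Genes that follow the amount of mitochondria gave a median log2 fold change of -0.06 over 12 tested, and none passed. The 2 with the smallest p were SLC25A5, an ADP/ATP carrier, with a log2 fold change of -0.43 (edgeR, adjusted p = 0.172), and HSPD1, the matrix chaperonin, with -0.29 (adjusted p = 0.174 from edgeR). SLC25A6, another ADP/ATP carrier, went the other way at 0.25 (edgeR, unadjusted p = 0.0416, adjusted p = 0.457) and was named after its values were seen. HSPD1 had 826, 973 and 843 counts in hypoxia against 1060, 1031 and 1056 in normoxia, with no overlap. Of 11 regulators of mitochondrial biogenesis, with a median of -0.09, 1 rose, against 0.596% of all mRNA features called as higher. MXI1, a repressor of MYC activity and a known target of hypoxia-inducible factor, had 403, 362 and 321 counts in hypoxia against 245, 258 and 251 in normoxia (log2 fold change 0.49, SE 0.109, adjusted p = 0.0173 from edgeR), with no overlap. The call was lost by DESeq2 and without hypoxia replicate 1, hypoxia replicate 2, normoxia replicate 1 or normoxia replicate 3. NRF1, a transcription factor for nuclear genes of the respiratory chain, had 10, 9 and 10 counts in hypoxia against 19, 17 and 10 in normoxia, and its log2 fold change was -0.70 (adjusted p = 0.585 from edgeR).

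**Figure D5:**
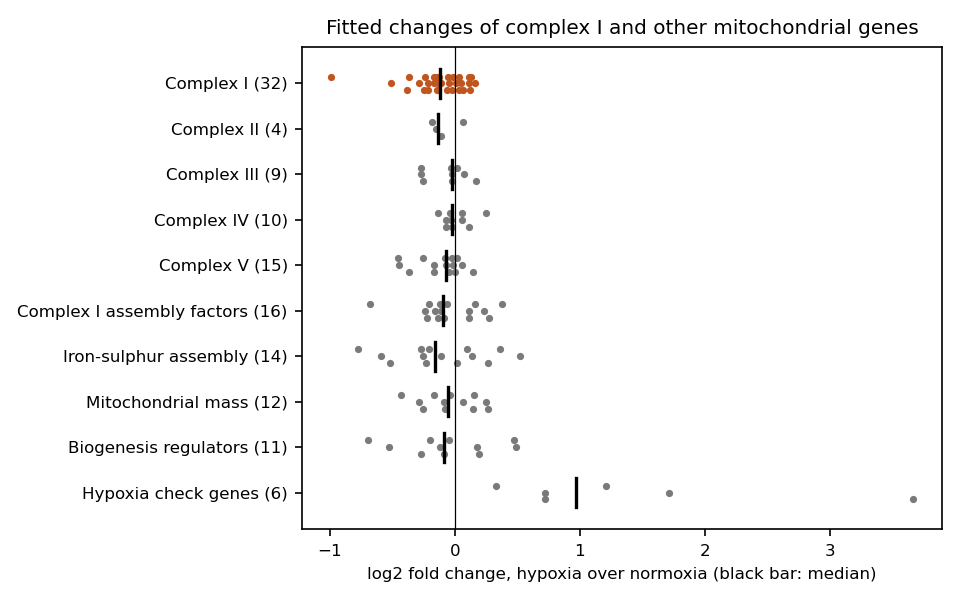
Fitted log2 fold changes of hypoxia over normoxia (horizontal axis) for the tested complex I members and 9 other gene lists, 1 point per gene, with the list's median as a black bar and its number of tested genes in brackets. The medians of complex I, complexes II to V and the other mitochondrial lists lie between -0.16 and 0, while that of the 6 hypoxia check genes is 0.97.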

How the data were processed

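Total RNA of SW1736 cells in hypoxia or normoxia (n = 3 libraries each) was made into CATS small RNA libraries. After adapter and poly(A) trimming (Cutadapt), the authors removed reads of rRNA, tRNA and other housekeeping RNAs. They aligned what was left first to miRBase 22 miRNAs and later to GENCODE 28 transcripts, took numbers per transcript with eXpress and left out minor transcripts, pseudogenes and non-coding parts of mRNAs. They deposited raw counts, 1 transcript per gene, with its length and no comparison columns. All 6 count columns of both tables were matched to labels, and 0 were unused.

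The miRNA and mRNA tables were joined, filtered (filterByExpr, minimum count 10), scaled by TMM and tested with edgeR 4.0.16 in R 4.3.3 (quasi-likelihood, robust, group only), with Benjamini-Hochberg adjustment over 11276 features (194 miRNAs, 11082 mRNA features) and a threshold of 0.05. The robust option was set after the data were seen. Normalized CPM are counts per 1000000 of the scaled total of the features that passed the filter. The libraries of a group differed by more than sampling noise in every pair (chi-square per degree of freedom 2.05 to 2.78 in hypoxia and 2.26 to 3.10 in normoxia). Alternatives were DESeq2 1.42.0, limma-voom (limma 3.58.1), no filter beyond 1 count, the mRNA table alone, each library left out, a replicate block and no robust option. The code was tested on simulated data. Positions, transcript types and 25-base words come from GENCODE 44 on GRCh38, in which 18 of the 38 listed transcripts have the deposited length. Shares have exact (Clopper-Pearson) 95% intervals.

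The members and lists were chosen with earlier results of these data known. Of members, all could be named by the rule, but 1 tested member and some markers are not reported here, although counts and medians over the lists include them. Described in full are those past an adjusted or unadjusted p of 0.05, the 3 highest and 3 lowest log2 fold changes and the 5 highest per kilobase. Of each other list, genes past the threshold and the 2 with the smallest p are named, with NDUFA4, NDUFA4L2 and the hypoxia check genes. Members outside these rules were named for their role or because their groups did not overlap, after their values were seen. Markers of blood and vessel cells were checked too: PTPRC, CD3E and KDR had 0 to 9 counts per library, and CD68, PECAM1 and CDH5 had 7 to 25, with 0 of 3 tested past the threshold.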

Additional observations from a re-analysis of the deposited data

How the results depend on the processing

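No complex I member was called by edgeR, DESeq2, limma-voom, without robust estimation (chosen after the data were seen), with every feature of at least 1 count, with the mRNA table alone, with a replicate block or with any library left out. DESeq2 gave no adjusted p for NDUFV1 and NDUFC2-KCTD14. The lowest adjusted p in any of these was 0.109, for NDUFS5 without hypoxia replicate 3. The median log2 fold change of the members was -0.12 in DESeq2, -0.11 in limma-voom, -0.12 in the mRNA table alone and -0.07 over all 38 with at least 1 count, and leaving out 1 library gave -0.14 to -0.02. The ratio of the summed share ran from 0.917 to 0.968 over its alternatives. With the replicate number as a block the median was -0.12 and 0 members were called. The labels do not say whether same-numbered libraries belong together. Their deviations from the group means correlated at -0.0048, 0.0035 and -0.0935, which cannot settle it, as count noise can hide a shared effect. DESeq2 called 38 mRNA features against 84 by edgeR, edgeR called 136 with every feature of at least 1 count, and leaving out 1 library gave 29 (without hypoxia replicate 2) to 119 (without normoxia replicate 2), with 55 without hypoxia replicate 1 and 45 without normoxia replicate 1. In DESeq2, 0 regulators of mitochondrial biogenesis were called against 1 (MXI1) by edgeR, a count that ran from 0 to 1 with a library left out. The cause was not tested.

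The direction of 16 members turned in at least 1 alternative. With every feature of at least 1 count the log2 fold change of NDUFA2 was -0.0021, and the other turns came from leaving out 1 library. The log2 fold changes then ran from -0.19 to 0.24 for NDUFA12, -0.0928 to 0.12 for NDUFA2, -0.23 to 0.11 for NDUFA5, -0.12 to 0.0338 for NDUFA6, -0.34 to 0.0697 for NDUFA7, -0.0729 to 0.17 for NDUFA8, -0.24 to 0.0324 for NDUFA9, -0.32 to 0.0645 for NDUFB1, -0.24 to 0.0255 for NDUFB3, -0.0574 to 0.45 for NDUFB4, -0.0194 to 0.30 for NDUFB5, -0.20 to 0.14 for NDUFB6, -0.20 to 0.11 for NDUFB9, -0.0486 to 0.12 for NDUFC1, -0.0047 to 0.20 for NDUFS4 and -0.10 to 0.065 for NDUFS6. With 1 listed transcript per gene and 59 to 2480 counts per tested member over the 6 libraries, depth limits what can be said of single subunits.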
